A study of Bos taurus with 21 samples.

Results

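Cholesterol synthesis was followed in milk somatic cells through 7 genes, chosen by symbol: HMGCS1, IDI1, FDFT1, SQLE, LSS, DHCR7 and INSIG1. All 7 had a row and were counted in every cow. The tables held 13570 gene rows, of which 12333 were counted in some cow and tested. Milk somatic cells are the cells that milk carries, mostly leukocytes with some shed mammary epithelial cells. They were taken from 21 lactating Holstein cows, 9 of a high milk yielding group (HY) and 12 of a low one (LY), with no treatment, and each cow gave 1 library. HY cows were 41 to 268 days into lactation (median 168) and LY cows 52 to 270 days (median 211.5), and parity was 2 to 4 in both groups. The labels give no unit for the lactation period, and it is read as days because the study's supplement speaks of days of lactation. Each cow also carried values of milk yield, milk fat, milk protein and milk solid, for which the labels give no unit either. The study describes that of milk yield as a breeding value. Cows are named here by group and a number that only identifies them.

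Cells build cholesterol from acetyl-CoA through mevalonate, isoprenoid units, squalene and lanosterol. Sterol regulatory element-binding proteins (SREBPs) switch on these genes when sterol is low, and INSIG1 holds the SREBP complex back in the endoplasmic reticulum when sterol is high. Lactating mammary epithelium makes fat and some cholesterol for milk, while macrophages both make cholesterol and take it up.

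The libraries held 7878557 to 28541904 counts on genes, and their scaling factors (TMM) ran from 0.46 to 1.48. The 4 casein genes (CSN1S1, CSN1S2, CSN2, CSN3), which encode the main milk proteins, took 0.0876 to 44.2% of a library, and both groups spanned most of that range (0.0876 to 44.2% in HY, 0.164 to 26.8% in LY). This casein share rose and fell with the mean log2 level of 12 other epithelial markers (Pearson r = 0.91 over 21 cows) and against that of 6 macrophage markers (r = -0.62). Every epithelial, macrophage and T cell marker with a row was counted in every cow, so each library held epithelial and leukocyte RNA. The summed epithelial markers ranged from 837 to 344727 CPM (counts scaled to library size) and the summed macrophage markers from 1448 to 6582 CPM. In such bulk samples fewer cells of a type and less RNA per cell cannot be told apart. Mapping rates split the cows into 16 with lower and 5 with higher rates.

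The early steps of the pathway are represented by HMGCS1 and IDI1. HMGCS1, the cytosolic synthase that makes HMG-CoA, stood at 102 to 697 CPM with a median of 291 CPM. Its highest value was in HY cow 6 and its lowest in LY cow 12. IDI1, which interconverts the isoprenoid units, stood at 49.4 to 260 CPM with a median of 112 CPM, from LY cow 12 to HY cow 9.

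FDFT1 and SQLE catalyse the first steps committed to sterols, the joining of farnesyl units into squalene and its epoxidation. FDFT1 lay between 94.6 and 219 CPM (median 146) and SQLE between 80.8 and 177 CPM (median 123). Both were among the steadiest genes of these cells. The SD of log2 CPM over the cows was 0.30 for FDFT1 and 0.34 for SQLE, and only 2.08% and 3.78% of 9628 genes with a mean of at least 10 counts had a smaller one. The median SD over those genes was 0.71. They were not matched for count level, and the lowest count in any cow was 794 for FDFT1 and 529 for SQLE.

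LSS closes the sterol rings to give lanosterol, and DHCR7 performs a last reduction to cholesterol. LSS lay between 13.2 and 35.3 CPM in 20 cows and at 2.18 CPM, from 19 counts, in LY cow 2. DHCR7 lay between 19.5 and 64.0 CPM with a median of 37.3 CPM. INSIG1 lay between 67.9 and 429 CPM (median 142), with an SD of 0.83 on the log2 scale. The SD of LSS was 0.83 over all cows and 0.44 without LY cow 2. These levels are not divided by gene length, so they compare cows within a gene and not one gene with another.

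**Figure D1:**
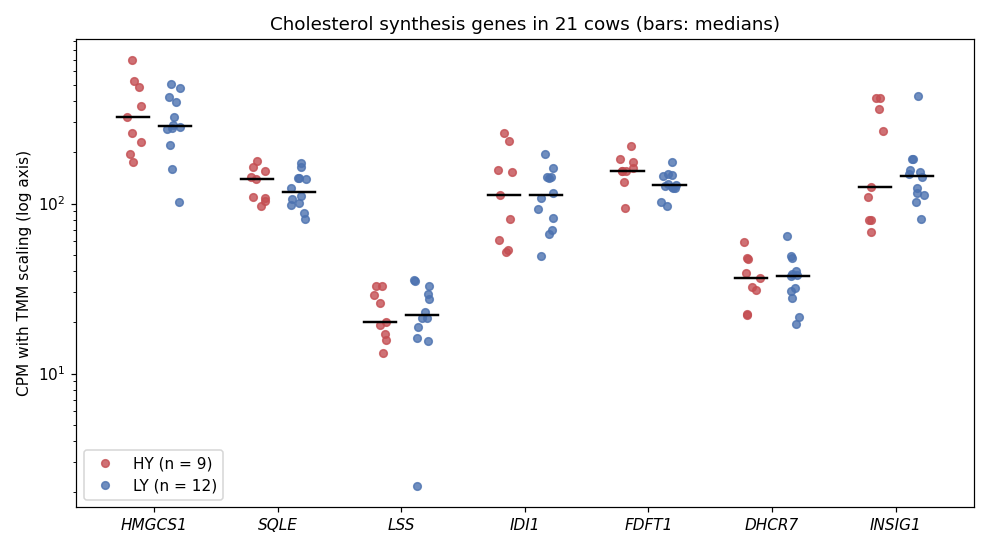
CPM of the 7 genes (log axis) in the 9 HY and 12 LY cows, with a point for each cow and a bar at each median. The HY and LY points overlap for every gene, and the LSS value of 2.18 CPM in LY cow 2 lies below all others.

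The first question was whether the 7 genes changed with days in lactation. INSIG1 had the steepest slope, lower in later lactation, and IDI1 followed in the same direction, but neither passed the threshold after adjustment. In the 8 cows sampled by day 108, INSIG1 was 109, 123, 158, 184, 361, 419, 420 and 429 CPM. In the 13 cows from day 167 on it ranged from 67.9 to 268 CPM with a median of 116 CPM. The ranges overlapped, and the 4 highest values of the series, from 361 to 429 CPM, were all from the early cows. The slope was -0.71 log2 per 100 days (SE 0.19, 95% interval -1.09 to -0.33), a difference of -38.8% per 100 days, with an adjusted p of 0.0646 in the quasi-likelihood test of edgeR, adjusted over all genes. The unadjusted edgeR p was 0.000796.

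Other readings of the INSIG1 values differed on the call and not on the direction. The Wald test of DESeq2 gave an adjusted p of 0.0149. Without HY cow 1 or without LY cow 9, both sampled by day 52, the edgeR adjusted p was 0.0269 or 0.0339. These were the only 2 calls in 21 fits that each left out 1 cow. Without LY cow 2, which had the highest INSIG1 value, the slope was -0.60 with an edgeR adjusted p of 0.160. Over all 31 alternatives INSIG1 was called in 3. Over the 21 cows Pearson r was -0.58 (permutation p = 0.00604, adjusted 0.123) and Spearman rho was -0.53 (permutation p = 0.0149, adjusted 0.205). Without both HY cow 1 and LY cow 9, the 2 farthest in lactation period, r was -0.73. It was -0.56 within HY, -0.65 within LY and -0.64 within the 16 cows of lower mapping rates. Among the 13 cows from day 167 it was -0.36.

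IDI1 was 53.5 to 260 CPM in the 8 early cows (median 160 CPM) and 49.4 to 154 CPM in the 13 later ones (median 92.4 CPM). Its slope was -0.42 log2 per 100 days (SE 0.18, edgeR p = 0.0257, adjusted p = 0.168). The slopes of the other 5 genes lay between -0.20 for HMGCS1 and 0.09 for LSS, with adjusted edgeR p-values of 0.471 to 0.852. So 0 of 7 genes were called at an adjusted edgeR p under 0.05, where 0.0243% of all genes were, and 2 of 7 had an unadjusted p under 0.05, against 22.3% of all genes. The share of members is near that background. DESeq2 called 920 genes and INSIG1 alone of the members. The median slope was -0.16 over the 7 genes and 0.03 over all genes.

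**Figure D2:**
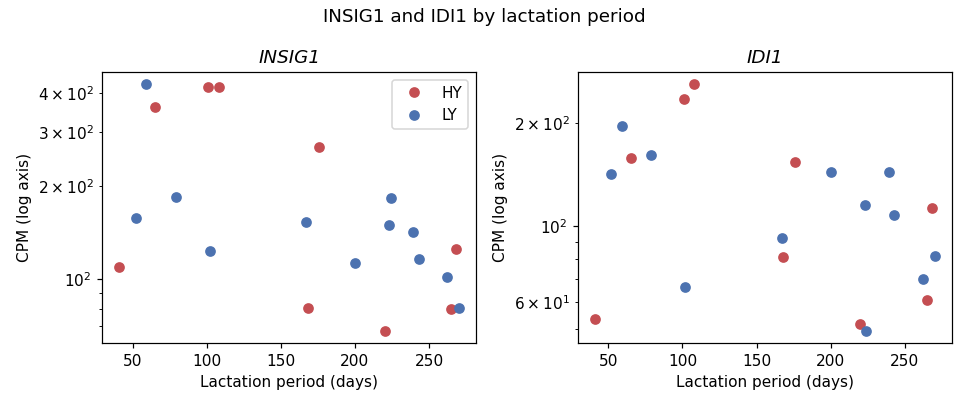
CPM (log axis) of INSIG1 and IDI1 against lactation period in days, with a point for each cow and HY and LY in different colours. The 4 INSIG1 values from 361 to 429 CPM are all from cows sampled by day 108, and the cow at day 41 lies low in both panels.

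Markers of epithelium moved with INSIG1 as well. Its r with the mean log2 level of the 12 epithelial markers was 0.54 (permutation p = 0.0112, adjusted 0.0504) and with the 6 macrophage markers -0.57 (permutation p = 0.00666, adjusted 0.0426). Its r was -0.60 with 8 T cell markers (permutation p = 0.00422, adjusted 0.0578). At an adjusted permutation p of r under 0.05, 2727 of 12333 genes passed with the epithelial markers. It was 2106 genes with the macrophage markers and 761 with the T cell markers. Lactation period itself had an r of -0.21 with the epithelial markers, 0.41 with the T cell markers, 0.33 with 6 neutrophil markers, -0.01 with the macrophage markers and -0.09 with log2 casein share. By edgeR 0 markers were called with lactation period, while 4 of 12 epithelial markers (LALBA, PAEP, MUC1 and KRT19, named after their values were seen) had lower and 3 of 6 neutrophil markers higher levels later in lactation at an unadjusted p under 0.05. The part of these markers in the INSIG1 slope was not tested. With casein share in the same edgeR model, the INSIG1 slope on lactation was -0.67 log2 per 100 days (SE 0.19, p = 0.00198, adjusted p = 0.0739). In that model 0 of 7 genes were called, where 0% of all genes were, and INSIG1 and IDI1 (p = 0.0439) had an unadjusted p under 0.05, against 24.6% of all genes. The lactation slopes of HY and LY were also compared directly. For INSIG1 they differed by -0.33 log2 per 100 days (HY minus LY, 95% interval -1.14 to 0.47, edgeR p = 0.399). At an adjusted p under 0.05, 0 of 7 members and 0% of all genes were called for that difference, and at an unadjusted p under 0.05 it was 0 of 7 and 2.61%.

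Other genes of the pathway gave the setting for these slopes. Of 15 further sterol enzymes, 0 were called with lactation period by edgeR, while 6 had an unadjusted p under 0.05, against 22.3% of all genes, 5 with lower and 1 with higher levels later in lactation. They are named here after their values were seen. The 5 were EBP (-0.64 log2 per 100 days, adjusted p = 0.0639), PMVK (-0.61, adjusted p = 0.0653), MVK (-0.62, adjusted p = 0.0695), HSD17B7 (-1.16, adjusted p = 0.0854) and MSMO1 (-0.43, adjusted p = 0.185). The sixth was LBR (0.72, adjusted p = 0.119), a nuclear membrane protein that also acts as a sterol reductase. SREBF2 and SREBF1, which encode the SREBPs, had slopes of 0.03 and -0.03 (adjusted edgeR p = 0.929 and 0.944).

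The second question was how the genes varied with the casein share. IDI1 was higher in libraries rich in casein RNA, and it was the only member called. In the 4 libraries under 1% casein it was 53.5, 60.8, 49.4 and 154 CPM. In the 5 libraries above 26% casein it was 115, 158, 161, 235 and 260 CPM. The sets overlapped through HY cow 7, which had the lowest casein share of all, 0.0876%, and 154 CPM of IDI1. Just under the 26% cut, LY cow 1 (24.7% casein) had 81.7 CPM and LY cow 10 (23.4%) had 108 CPM. Both lay below every IDI1 value above the cut. The slope was 0.14 log2 per doubling of casein share (SE 0.044, 95% interval 0.05 to 0.23), or 1.10-fold per doubling, with an edgeR p of 0.00453 and an adjusted p of 0.0292. Pearson r was 0.61 (permutation p = 0.00314, adjusted 0.0244) and Spearman rho was 0.67 (permutation p = 0.00112, adjusted 0.0113). It was 0.56 within HY, 0.75 within LY and 0.78 without the 2 cows farthest in casein share.

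The IDI1 call depended on which cows were fitted. Within the 16 cows of lower mapping rates the slope was 0.12 with an adjusted edgeR p of 0.148, and r was 0.54. The adjusted edgeR p was 0.0798 without HY cow 1, 0.0556 without HY cow 4 and 0.0745 without LY cow 12, each with a low casein share. Without HY cow 7 the slope was 0.24 (adjusted p = 0.00035). Without all 4 libraries under 1% casein it was 0.30 (adjusted p = 0.0196). With lactation period in the same model it was 0.12 (SE 0.042, adjusted p = 0.0418).

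HMGCS1 had a slope of 0.09 log2 per doubling of casein share (SE 0.047, edgeR adjusted p = 0.212). HY cow 7 again stood high, at 482 CPM, and without it the HMGCS1 slope was 0.18 with an adjusted p of 0.0148. Without LY cow 12, which had the lowest HMGCS1 value, the slope was 0.06 with an adjusted edgeR p of 0.444. INSIG1 had a slope of 0.09 (adjusted p = 0.296). With casein share entered in percent rather than on the log2 scale, INSIG1 was called as well, at 0.35 log2 per 10 percentage points (adjusted p = 0.0291). SQLE had a slope of 0.03 (adjusted p = 0.450).

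The late enzymes and FDFT1 had slopes of the opposite sign. DHCR7 was 47.3, 36.5, 48.8 and 59.3 CPM in the 4 libraries under 1% casein and 21.4, 22.2, 27.9, 30.8 and 47.9 CPM in the 5 above 26%. Its slope was -0.07 log2 per doubling (SE 0.034, edgeR p = 0.0493, adjusted p = 0.154). Without LY cow 2, which had the highest DHCR7 value, it was -0.09 with an adjusted p of 0.0419. Without HY cow 7 it was -0.06 with an adjusted edgeR p of 0.362. Over all 32 alternatives DHCR7 was called in 1. LSS had a slope of -0.08 (adjusted p = 0.277) and an r of -0.37 (permutation p = 0.100, adjusted 0.261), while its Spearman rho was -0.58 (permutation p = 0.00691, adjusted 0.0415). FDFT1 had a slope of -0.04 (adjusted p = 0.306).

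At an adjusted edgeR p under 0.05, 1 of 7 genes was called with casein share, where 20.1% of all genes were. At an unadjusted p under 0.05 it was 2 of 7, IDI1 and DHCR7, against 32% of all genes. With lactation period in the model the members called were again 1 of 7, where 20.7% of all genes were called, and again 2 of 7 had an unadjusted p under 0.05, against 33.3%. The members' shares are near or under the background in each case.

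**Figure D3:**
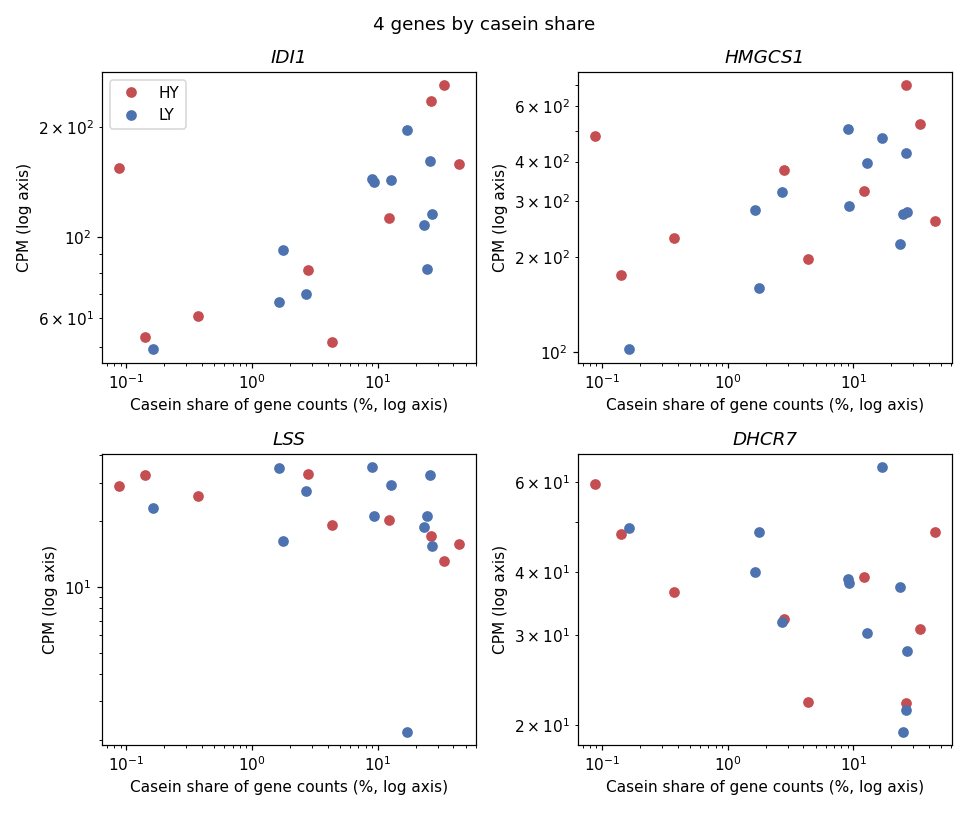
CPM (log axis) of IDI1, HMGCS1, LSS and DHCR7 against the casein share of gene counts in percent (log axis), with a point for each cow and HY and LY in different colours. IDI1 is higher at higher casein shares, apart from the leftmost cow at 0.0876% with 154 CPM, and DHCR7 is lower.

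**Figure D4:**
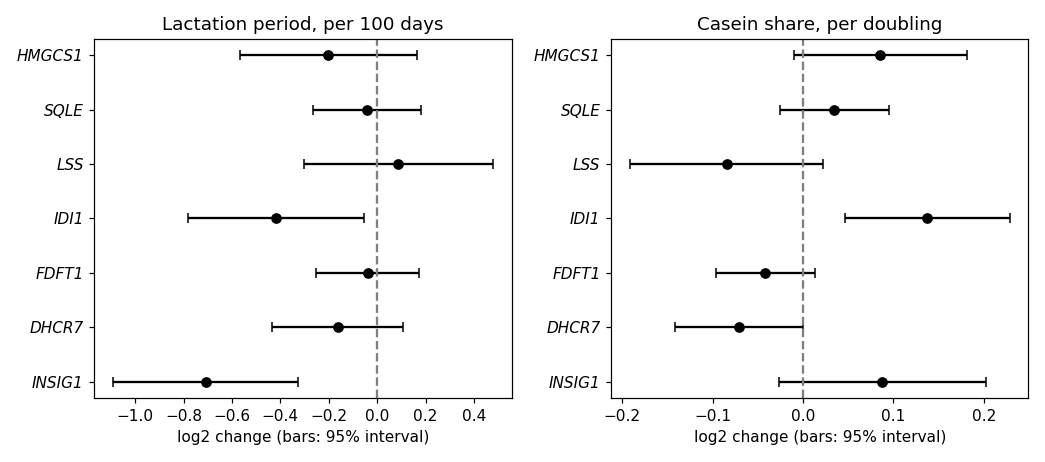
Slopes of the 7 genes in log2 units from edgeR, per 100 days of lactation and per doubling of casein share, with 95% intervals and a dashed line at no change. The intervals of INSIG1 and IDI1 lie below 0 for lactation period, and for casein share that of IDI1 lies above 0 and that of DHCR7 just below it.

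Marker levels moved with the same genes. IDI1 had an r of 0.72 with the epithelial markers (permutation p = 0.00018, adjusted 0.00238) and -0.67 with the macrophage markers (permutation p = 0.00091, adjusted 0.0109). LSS went the other way, with 0.66 for the macrophage markers (permutation p = 0.00024, adjusted 0.00465) and -0.50 for the epithelial markers (permutation p = 0.0129, adjusted 0.0559). The macrophage r of LSS was 0.56 without LY cow 2 and HY cow 9, the farthest in macrophage markers, and 0.74 within HY and 0.71 within LY. DHCR7 had an r of 0.53 with the neutrophil markers (permutation p = 0.0130, adjusted 0.118). Such relations were common, as 2727 of 12333 genes had an adjusted permutation p of r under 0.05 with the epithelial markers. For the macrophage markers it was 2106 genes, and for the neutrophil markers 770. The part of cell makeup in the slopes of these genes was not tested.

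Other genes of sterol and lipid metabolism were read along the casein share, with which 20.1% of all genes were called. Of 8 measured genes of fatty acid synthesis, 5 rose and 1 fell with casein share at an adjusted edgeR p under 0.05. SCD, the stearoyl-CoA desaturase, rose by 0.61 log2 per doubling (adjusted p = 2.98e-08), and FASN, the fatty acid synthase, by 0.55 (adjusted p = 5.35e-07). ACSS2, which activates acetate, rose by 0.42 (adjusted p = 2.85e-05), and ACACA, the acetyl-CoA carboxylase, by 0.28 (adjusted p = 0.00016). Their slopes were larger than the 0.14 of IDI1. THRSP was also among the 5 that rose, but it lay near the floor, at 0 to 4.24 CPM with a median of 0. The gene that fell was ACLY (-0.13 log2 per doubling, adjusted edgeR p = 0.0355). Of the 15 further sterol enzymes 3 rose and 1 fell, with HSD17B7 rising by 0.40 (adjusted p = 0.000611), and the median slope of the 15 was 0.03, so that 4 of 15 were called, near the share of all genes. Of 6 genes of other isoprenoid products 3 rose, among them COQ2 of ubiquinone synthesis, by 0.29 (adjusted p = 0.000349).

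Called genes of SREBP control and of cholesterol export fell. Of 5 measured genes of SREBP control 3 fell, among them SREBF1 with a slope of -0.18 (adjusted edgeR p = 0.00143) and SREBF2 with -0.13 (adjusted p = 0.00171). Of 8 genes of cholesterol export and its control 3 fell, where 20.1% of all genes were called with casein share. Of the markers, 9 of 12 epithelial ones rose and 4 of 6 macrophage ones fell with casein share. The other macrophage markers, MSR1 and AIF1, had slopes of 0.08 and 0.03 (adjusted edgeR p = 0.407 and 0.659).

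The third question was the milk traits. No member was called with any of them. For milk yield, 0 of 7 genes were called at an adjusted edgeR p under 0.05, where 0.105% of all genes were, and 0 of 7 at an unadjusted p under 0.05, against 3.7%. The largest slope was that of FDFT1, 0.05 log2 per 100 units (95% interval -0.02 to 0.11, p = 0.152). For INSIG1 it was -0.02 (95% interval -0.16 to 0.13). With the milk yielding group in the model the INSIG1 slope was -0.32 log2 per 100 units (SE 0.12, edgeR p = 0.0104, adjusted p = 0.764), and that of IDI1 moved from -0.03 to -0.23 (SE 0.10, p = 0.0334, adjusted p = 0.764). Over all cows FDFT1 had an r of 0.34 with milk yield, and it was -0.53 within HY and 0.23 within LY. INSIG1 had -0.16 over all cows, -0.70 within HY and -0.47 within LY. Within the groups milk yield was tied to lactation period. LY cows 2, 8 and 9 had the lowest LY yields, -404 to -364, at days 52 to 79. HY cows 4 and 5 had the highest HY yields, 459 and 468, at days 265 and 220. The part of lactation period in the yield slopes with group in the model and in the r within groups was not tested.

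For milk fat 0 of 7 genes were called, where 0% of all genes were, and 0 of 7 had an unadjusted edgeR p under 0.05, against 2.87%. For milk protein the same counts were 0 and 0 of 7, where the shares of all genes were 0% and 2.77%. For milk solid they were 0 and 0 of 7, against 0.0324% and 3.13%. The lowest p over these 3 traits was that of INSIG1 with milk fat, 0.46 log2 per 10 units (SE 0.27, 95% interval -0.11 to 1.02, edgeR p = 0.110). Of 42 correlations of members with the 6 measures, only IDI1 with casein share had an adjusted permutation p of r under 0.05. By Spearman rho, LSS with casein share passed as well. Among all 12333 genes, 2256 passed by r and 2235 by rho with casein share, while 0 passed with any other of the 6 measures.

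Between HY and LY, 0 of 7 genes were called by edgeR, where 0% of all genes were, and 0 of 7 had an unadjusted p under 0.05, against 4.7%. FDFT1 came nearest. It ranged from 94.6 to 219 CPM in HY (median 156 CPM) and from 96.6 to 175 CPM in LY (median 128 CPM), so the groups overlapped over most of their range. Its mean log2 CPM was 7.29 ± 0.33 (SD, n = 9) for the HY cows. For the LY cows it was 7.02 ± 0.23 (SD, n = 12). The two-sided exact permutation test over 293930 splits gave p = 0.0443, unadjusted for the 7 genes, and edgeR gave p = 0.0845 with an adjusted p of 0.999. The other 6 genes had exact p-values of 0.386 to 0.933. The log2 SD of INSIG1 was 1.10 over the HY cows and 0.60 over the LY cows, and the difference in spread was not tested. SREBF2 and SREBF1 had adjusted edgeR p-values of 0.999 between HY and LY.

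The 7 genes did not move as a single block over the cows. HMGCS1, IDI1 and SQLE rose and fell together, with r of 0.79 for HMGCS1 and IDI1, 0.68 for HMGCS1 and SQLE and 0.59 for SQLE and IDI1. INSIG1 followed IDI1 (r = 0.78, with 0.94 within HY and 0.47 within LY). FDFT1 and DHCR7 formed another pair (r = 0.54). LSS went against INSIG1 (r = -0.55) and IDI1 (r = -0.41). These correlations are a description over 21 cows, and the values of a cow share its library and scaling. The mean of the other 6 genes had an r of 0.63 with SQLE and -0.22 with LSS.

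**Figure D5:**
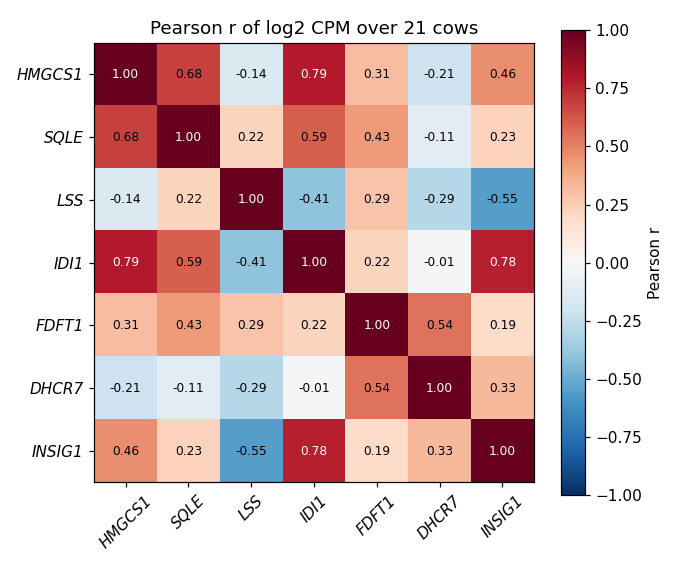
Pearson r of log2 CPM over 21 cows for every pair of the 7 genes, on a colour scale from -1 to 1. HMGCS1, SQLE, IDI1 and INSIG1 are positive with each other, and LSS is negative with IDI1 and INSIG1.

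Among 9621 other genes, those most like the mean of the 7 scaled members over 21 cows were SF3B14 (r = 0.79), the sterol oxidase MSMO1 (r = 0.78), GAB1, CXCL6, IGSF10, ILDR1, SPRY1, UBE2E1, SYPL1 and DEFB7 (r = 0.70). For single members the nearest genes differed. MSMO1 was nearest to IDI1 (r = 0.93) and the sterol demethylase CYP51A1 to SQLE (r = 0.85). The nearest to LSS was DENND1A (r = 0.92), to DHCR7 LENG1 (r = 0.89), to FDFT1 CXCL6 (r = 0.80), to INSIG1 DNAJB2 (r = 0.91) and to HMGCS1 EIF5 (r = 0.90). SREBF1 had an r of -0.71 with HMGCS1, -0.68 with IDI1, -0.31 with INSIG1 and -0.23 with SQLE. Its r was positive with the other members, 0.43 with DHCR7, 0.36 with LSS and 0.07 with FDFT1. For SREBF2 the values ran from -0.52 with HMGCS1 to 0.65 with DHCR7.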

How the data were processed

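RNA of milk somatic cells from 21 Holstein cows was sequenced. Per the study's methods, milk was drawn by hand after the evening milking. The authors trimmed reads with Trimmomatic, mapped them to bosTau7 with Bowtie2 within TopHat2 and counted them per gene with HTSeq, and deposited raw counts without normalization. Versions are not given in the sources used here. From these counts, 5 summary rows and 1 row naming no gene (0.036 to 0.151% of counts) were left out, and 23 symbols that had become dates could not be named. Cows of the same group differed by more than sampling noise (lowest chi-square per degree of freedom 56.2 over 102 pairs within groups). Pairs of an HY and an LY cow were not compared in this way.

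Each gene was the response in edgeR 4.0.16 (TMM, quasi-likelihood test), with the trait as a continuous predictor, over 12333 genes and Benjamini-Hochberg adjustment over all of them. The study instead used the trait as the response. Standard errors were derived from the F statistic. Correlations used log2(CPM + 0.25) and two-sided permutation tests with 100000 resamples, adjusted over all genes within each measure. Alternatives were DESeq2 1.42.0, other scalings, filters, covariates and subsets of cows. The analysis was tested on simulated data. R 4.3.3, limma 3.58.1, Python 3.11.15, numpy 2.4.6 and scipy 1.17.1 were used.

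The members and gene lists were chosen with earlier results of these data known. Named were all 7 members, SREBF2 and SREBF1, up to 6 called list genes a comparison by lowest p, and the 10 genes most like the members' mean. Some further list genes and markers were named after their values were seen. Some results that the rule covers are not reported here. Motifs in promoters, sequences and levels per gene length were not analysed here, nor were 10 listed genes without a row under their symbol. With single libraries per cow, p-values rest on the variation between libraries, in which differences of the animal and of its library cannot be told apart.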

Additional observations from a re-analysis of the deposited data

How the results depend on the processing

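Of 1078 refits of the slopes of the 7 genes, 986 kept both the direction and the side of the threshold, 7 gained a call and 4 lost one. The sign changed in the other 81, in none of them for a slope with an unadjusted p under 0.05 in the reported fit. With lactation period the number of members called, 0 as reported, was 1 with the DESeq2 test and 0 to 1 when a cow was left out. With casein share it was 1 as reported, 2 with the share in percent, 0 in the 16 cows of lower mapping rates and 0 to 2 when a cow was left out. With lactation period at a given casein share it was 1 with the DESeq2 test. For milk yield, fat, protein, solid, HY against LY and the difference in lactation slope it was 0 under every alternative run. The number of genes called over the whole table moved more. With lactation period it was 3, against 920 with DESeq2, 0 with at least 10 counts in every cow, 0 to 428 when a cow was left out (428 without LY cow 9, 358 without HY cow 1). With lactation period at a given casein share it was 0, against 1235 with DESeq2. With casein share it was 2473, against 1212 in the 16 cows of lower mapping rates and 757 without the 4 cows under 1% casein. With milk yield it was 13, against 0 with DESeq2. The cause of these changes was not tested. Leaving out the 4 libraries under 1% casein, the 13 cows from day 167, LSS without LY cow 2 and lactation period as a lone covariate were chosen after seeing the data. LSS rests on 19 counts in LY cow 2. No paired analysis was possible because the numbers of HY and LY cows come from their order and pair nothing.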
